A study of Mus musculus with 45 samples.

Results

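The effect of a typical Western diet (TWD) on hippocampal gene expression was examined in APPswe/PS1dE9 (A+Tw) mice, by comparing the 6 A+Tw/TWD mice with the 5 A+Tw/STD mice that stayed on the standard rodent diet (STD). These 11 mice were chosen by their genotype and diet labels alone, out of 45 mice in the series, and all 15897 genes of the deposited table were compared. All 11 were female, of C57Bl/6J background and without the Tau transgene, and the diet was given from 7 to 13 months of age. TWD held 21% fat by weight, 0.15% cholesterol and 35% sucrose, while STD held 5% fat and 0% cholesterol. The A+Tw line carries 1 transgene, driven by the mouse prion protein (PrP) promoter, for a chimeric mouse/human APP with the Swedish mutations and for PS1dE9. The reference groups were wild-type littermates (AwTw), with 6 mice on each diet, and mice that carry in addition human Tau P301L under the CaMKII promoter (A+T+), with 4 mice on STD and 6 on TWD. The remaining 12 mice of the series, with Tau P301L alone (AwT+) and 6 on each diet, are also in the fit. The diets are unevenly split over the 2 batches named in the labels: 4 of the 5 A+Tw/STD mice belong to batch 1, and 4 of the 6 A+Tw/TWD mice to batch 0. GEO lists each mouse as a separate sample.

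APPswe/PS1dE9 mice overproduce β-amyloid and deposit it as plaques in cortex and hippocampus, and microglia that gather at plaques switch on a set of genes known as the disease-associated (DAM) programme, which depends on the receptor Trem2. A diet rich in saturated fat, cholesterol and sugar causes obesity and peripheral insulin resistance. Cholesterol itself does not cross the intact blood-brain barrier, so that the brain makes its own, under control of the sterol-sensing SREBP-2 pathway. Insulin acts on neurons and glia mainly through PI3K and Akt.

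The values are variance-stabilized and log2-like, so a difference of 1 stands for about a 2-fold change in well expressed genes and for more than that near the lower end of the scale. Differences are TWD minus STD with batch in the model, ± SE, and levels of single mice are adjusted for batch in the same model. Values ran from 1.90 to 18.08, and the median of the 11 mice lay between 8.14 and 8.30. The depth per mouse is unknown from such values. App was at 15.12–15.60 in the 11 A+Tw mice and at 14.23–14.80 in the 12 AwTw mice, and Prnp, whose promoter drives the transgene, at 14.63–15.07 and 13.59–13.91. Cst7, a cystatin that microglia express at plaques, read 8.73–10.00 against 4.81–5.49, so that the genotype labels and the presence of a plaque response held in every mouse of both diets. The hippocampal genes Prox1, Fibcd1 and Wfs1 were present in all 11 mice. Pairs of A+Tw mice correlated at 0.921–0.989 across genes. The main axis of residual variation is the first principal component of what the model left unexplained. Mice were scored on it by their full values, so the score also holds diet, genotype and batch differences along this axis. It was 1.42, −1.23, 1.31, 0.45 and −0.97 in A+Tw/STD mice 1 to 5, with a mean of 0.20. In A+Tw/TWD mice 1 to 6 it was 0.28, −1.63, −0.73, −0.33, −0.73 and 0.06, with a mean of −0.51. The part of this axis in the results was not tested. With this score as a covariate, the median difference of 33 of the 44 gene lists was closer to 0 and that of 6 lists had the other sign. Such a fit also takes out any diet difference that lies along the axis.

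No gene passed an adjusted p of 0.05 for diet in A+Tw mice (limma with Benjamini-Hochberg adjustment, 0% of the 15897 genes), and the smallest adjusted p was 0.706. At an unadjusted p below 0.05 stood 705 genes (4.43%), of which 352 (2.21% of all genes) were higher and 353 (2.22%) lower on TWD. The number expected at that p if no gene differed is 795. TWD was the higher diet for 49.1% of genes, and the median difference was −0.0058. The values of the 11 mice did not overlap between the diets for 17 genes that were higher on TWD (0.107%) and 21 that were lower (0.132%). With so few mice some genes separate fully by chance, and how many was not computed. A lack of overlap is therefore given below as a description only. The design limits what could be seen: the median SE was 0.163, and the 95% interval lay wholly within ±0.5 for 53.1% of genes and within ±1 for 92.2%. For most genes a difference beyond ±1 thus lay outside the interval, while differences below 0.5 could often not be told from 0. The count of 705 also depended on single mice. It was 333 without A+Tw/STD mouse 3 and 2333 without A+Tw/STD mouse 2, the mouse with the lowest score among those on STD, as the plot of counts with 1 mouse left out shows. Medians over gene lists depended on single mice too: with 1 mouse left out, those of 40 of the 44 lists moved by over 1.5 times or turned sign, 15 of them turning sign. Every diet difference in A+Tw mice described below has an adjusted p of 0.706 or more, so the genes are described as higher or lower by their measured values and none is called changed.

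**Figure D1:**
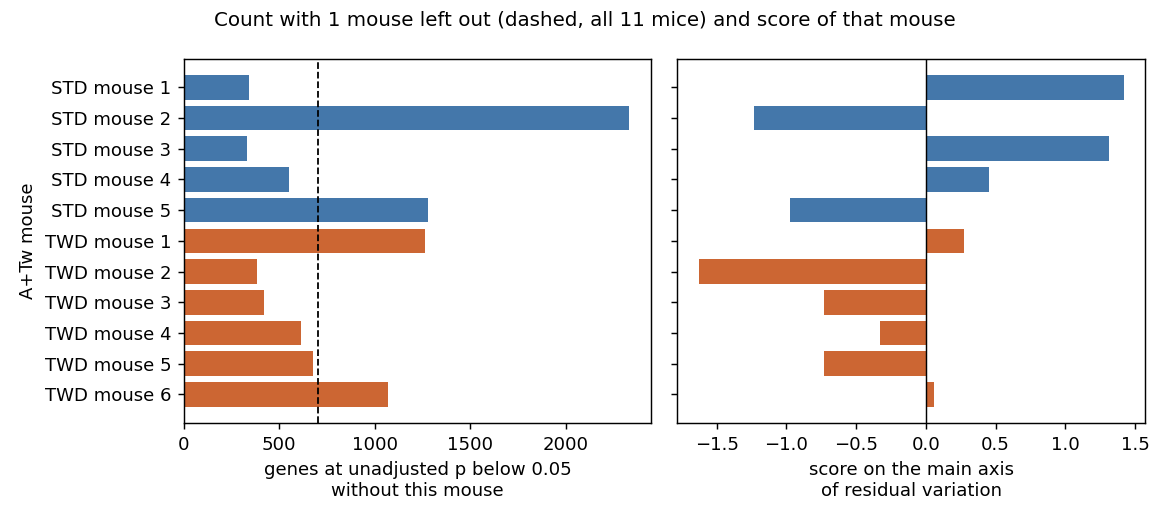
Left, number of genes at an unadjusted p below 0.05 for diet when the A+Tw mouse named on the y axis is left out (blue STD, orange TWD; dashed line, 705 with all 11 mice). Right, score of that mouse on the main axis of residual variation. The count runs from 333 without STD mouse 3, which scores 1.31, to 2333 without STD mouse 2, which scores −1.23.

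Interferon-stimulated genes were among those most often higher on TWD. Cells make these antiviral proteins and regulators when interferons activate transcription factors that bind the interferon-stimulated response element. Of 19 such genes measured, 17 were higher on TWD, 8 of them at an unadjusted p below 0.05 and none in the other direction, beside 2.21% of all genes. Their median difference was 0.32, against −0.0058 over all genes. The promoters of 3 of them, read from 250 bases before to 50 bases after the transcript start in RefSeq (GRCm38.p6), show where the element lies. They are printed 5′ to 3′ in the direction of the gene, with matches to GAAANNGAA on either strand in capitals (matches may overlap each other). The Isg15 window is chr4:156200769-156201068, minus strand, that of Oas1a chr5:120907476-120907775, minus strand, and that of Bst2 chr8:71537423-71537722, minus strand.
Isg15: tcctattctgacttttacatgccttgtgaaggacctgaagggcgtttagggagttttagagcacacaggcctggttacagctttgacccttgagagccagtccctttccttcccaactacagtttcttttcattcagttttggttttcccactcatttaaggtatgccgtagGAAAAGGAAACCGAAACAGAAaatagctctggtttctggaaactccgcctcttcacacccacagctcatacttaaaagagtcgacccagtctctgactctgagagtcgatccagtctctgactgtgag
Oas1a: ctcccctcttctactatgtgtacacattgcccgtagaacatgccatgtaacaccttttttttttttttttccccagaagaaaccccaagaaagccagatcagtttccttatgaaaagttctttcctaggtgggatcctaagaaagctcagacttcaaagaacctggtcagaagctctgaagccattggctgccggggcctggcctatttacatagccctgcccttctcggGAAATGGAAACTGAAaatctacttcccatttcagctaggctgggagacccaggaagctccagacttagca
Bst2: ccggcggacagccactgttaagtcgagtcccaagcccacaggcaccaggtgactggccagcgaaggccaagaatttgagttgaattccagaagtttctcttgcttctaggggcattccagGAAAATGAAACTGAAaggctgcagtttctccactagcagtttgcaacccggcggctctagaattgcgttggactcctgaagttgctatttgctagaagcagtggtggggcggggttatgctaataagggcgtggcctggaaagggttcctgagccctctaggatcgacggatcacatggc
The element occurred in 9 of the 14 interferon genes with a promoter in the table (64.3%: Bst2, Gbp2, Ifit1, Ifit3, Ifitm3, Isg15, Oas1a, Stat2 and Trim30a) and in 8.54% of 11615 genes in all. Isg15 held 3 overlapping matches, starting 78, 72 and 66 bases before the start, and the matches of Oas1a lay 20 and 14 bases before it. A match describes these letters only. Its presence did not fix the direction, since Stat2 was at −0.19 and Gbp2 at 0.08.

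Oas1a, an oligoadenylate synthetase that senses double-stranded RNA, read 5.43, 5.52, 5.05, 5.38 and 5.77 in A+Tw/STD mice 1 to 5 and 6.14, 5.58, 6.76, 5.33, 6.44 and 6.48 in A+Tw/TWD mice 1 to 6. Mice 1, 3, 5 and 6 on TWD lay above every STD mouse, while mice 2 and 4 lay among them. The difference was 0.69 ± 0.23, with a 95% interval of 0.23 to 1.16. The level of Oas1a, 5.05–6.76, is low on the scale. Irf7, the transcription factor that amplifies the interferon response, read 6.55, 6.43, 6.16, 6.48 and 6.89 on STD and from 6.68 to 7.59 (median 7.10) on TWD, a difference of 0.61 ± 0.22. Isg15, a ubiquitin-like modifier, differed by 0.56 ± 0.22 and Usp18, which removes it from proteins, by 0.39 ± 0.19. The antiviral membrane proteins Bst2 (tetherin) and Ifitm3 differed by 0.61 ± 0.30 and 0.53 ± 0.26. For Bst2, 5 of the 6 TWD mice were above all STD mice. Irf9, a DNA-binding factor that works with STAT2, was at 0.32 ± 0.15, and Ifi27l2a at 0.56 ± 0.26. Outside the list, Ifi35, another interferon-induced gene, did not overlap between the diets: it read 6.35, 6.58, 6.34, 6.56 and 6.36 on STD and from 6.63 to 7.52 (median 6.86) on TWD, a difference of 0.56 ± 0.19. Ifi35 was named because its values did not overlap. Gbp4, an interferon-induced GTPase, was at 0.01.

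The mean level of the 19 genes, set to 0 for the average STD mouse, was 0.07, 0.04, −0.05, −0.13 and 0.07 in A+Tw/STD mice 1 to 5 and 0.26, −0.04, 0.62, −0.07, 0.27 and 0.83 in A+Tw/TWD mice 1 to 6. A+Tw/TWD mice 6 and 3 were the highest, mice 5 and 1 followed, and mice 2 and 4 did not stand above STD. The higher mean of TWD thus came from 4 of 6 mice. With 1 mouse left out at a time the median stayed between 0.21 and 0.43, with the lowest value without TWD mouse 6. The number of genes at an unadjusted p below 0.05 was 2 without TWD mouse 3 or 6 and 9 without STD mouse 2 or TWD mouse 4. Over all genes, in either direction, that number was 418 and 1070 without TWD mice 3 and 6. It was 2333 without STD mouse 2 and 612 without TWD mouse 4. The median of the list was 0.65 within batch 0, with 1 STD mouse, and −0.0044 within batch 1, with 4 STD and 2 TWD mice. Over all 25 alternatives it ran from −0.09 to 0.65, and 23 kept its sign. Batch 1 holds A+Tw/TWD mice 2 and 5 only, and the part of batch in this difference was not tested.

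All 14 genes of antigen presentation that were measured were higher on TWD, 4 of them at an unadjusted p below 0.05 (beside 2.21% of all genes), with a median of 0.47. These genes encode class I and class II molecules, which show peptides to T cells, and their regulators. The class I heavy chain H2-D1 read 10.16, 10.71, 9.52, 9.83 and 10.57 in A+Tw/STD mice 1 to 5 and 10.50, 10.45, 10.44, 10.41, 10.49 and 11.43 in A+Tw/TWD mice 1 to 6. Mouse 6 alone was above all STD mice. The difference was 0.46 ± 0.23, and that of H2-K1, the other classical class I chain, 0.50 ± 0.23, again with mouse 6 alone above the STD mice. The non-classical H2-T23, at 0.60 ± 0.22, had 4 of 6 TWD mice above all STD mice, and the class I transactivator Nlrc5 was at 0.48 ± 0.21. B2m, the light chain of every class I molecule, was at 0.04. H2-Q7, another non-classical class I gene, lies outside the list and was named because its values did not overlap. It read 6.36, 6.53, 5.85, 6.16 and 6.50 on STD and from 6.62 to 7.99 (median 6.81) on TWD, a difference of 0.77 ± 0.25. Class I genes are related in sequence, so that the assignment of reads among H2-D1, H2-K1 and H2-Q7 is uncertain. The mean level of the 14 genes was −0.02, 0.39, −0.31, −0.14 and 0.08 on STD and 0.07, 0.41, 0.51, 0.04, 0.17 and 1.36 on TWD, where mouse 6 stood apart at 1.36. Without mouse 6 the median of the list was 0.30, with 1 gene at an unadjusted p below 0.05. It was 0.28 with the axis score as a covariate, with 2 genes at that p, and 0.28 within batch 1, with 0. Over all genes, in either direction, counts at that p were 1070 without mouse 6, 517 with the axis score and 629 within batch 1.

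Immunoglobulin genes, which cells of the B lineage express, were high in some of the same mice. Igkc, the constant region of the kappa light chain, read 11.52, 6.60, 5.04, 5.27 and 5.66 in A+Tw/STD mice 1 to 5 and 4.70, 5.18, 10.36, 6.06, 8.19 and 11.61 in A+Tw/TWD mice 1 to 6. It was high in STD mouse 1 and in TWD mice 6, 3 and 5, and the diets overlapped fully, with a difference of 0.86 ± 1.03. Ighm, the heavy chain of IgM, reached 11.48 in STD mouse 1, 10.63 in TWD mouse 3 and 12.17 in TWD mouse 6, and lay at 8.88–9.79 in the other 8 mice. It was thus detected in every mouse. Ighg1 was at 8.29, 6.73 and 8.73 in STD mice 1 and 2 and TWD mouse 6, at 4.55 in TWD mouse 3 and at its floor of 4.33–4.34 in the others. A kappa variable segment (ENSMUSG00000096833), one of the 10 genes with the smallest p for a higher level on TWD, was at its floor of 4.35 in all STD mice and in TWD mice 1, 2 and 4, and at 7.76, 6.30 and 8.79 in TWD mice 3, 5 and 6. A+Tw/TWD mice 3 and 6, with the most Igkc on TWD, were also the 2 highest for the interferon genes, while A+Tw/STD mouse 1, with as much Igkc, was at 0.07 for them. The part of such cells in the interferon and class I values was not tested. In bulk tissue, fewer or more cells of a type and less or more RNA per cell cannot be told apart.

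**Figure D2:**
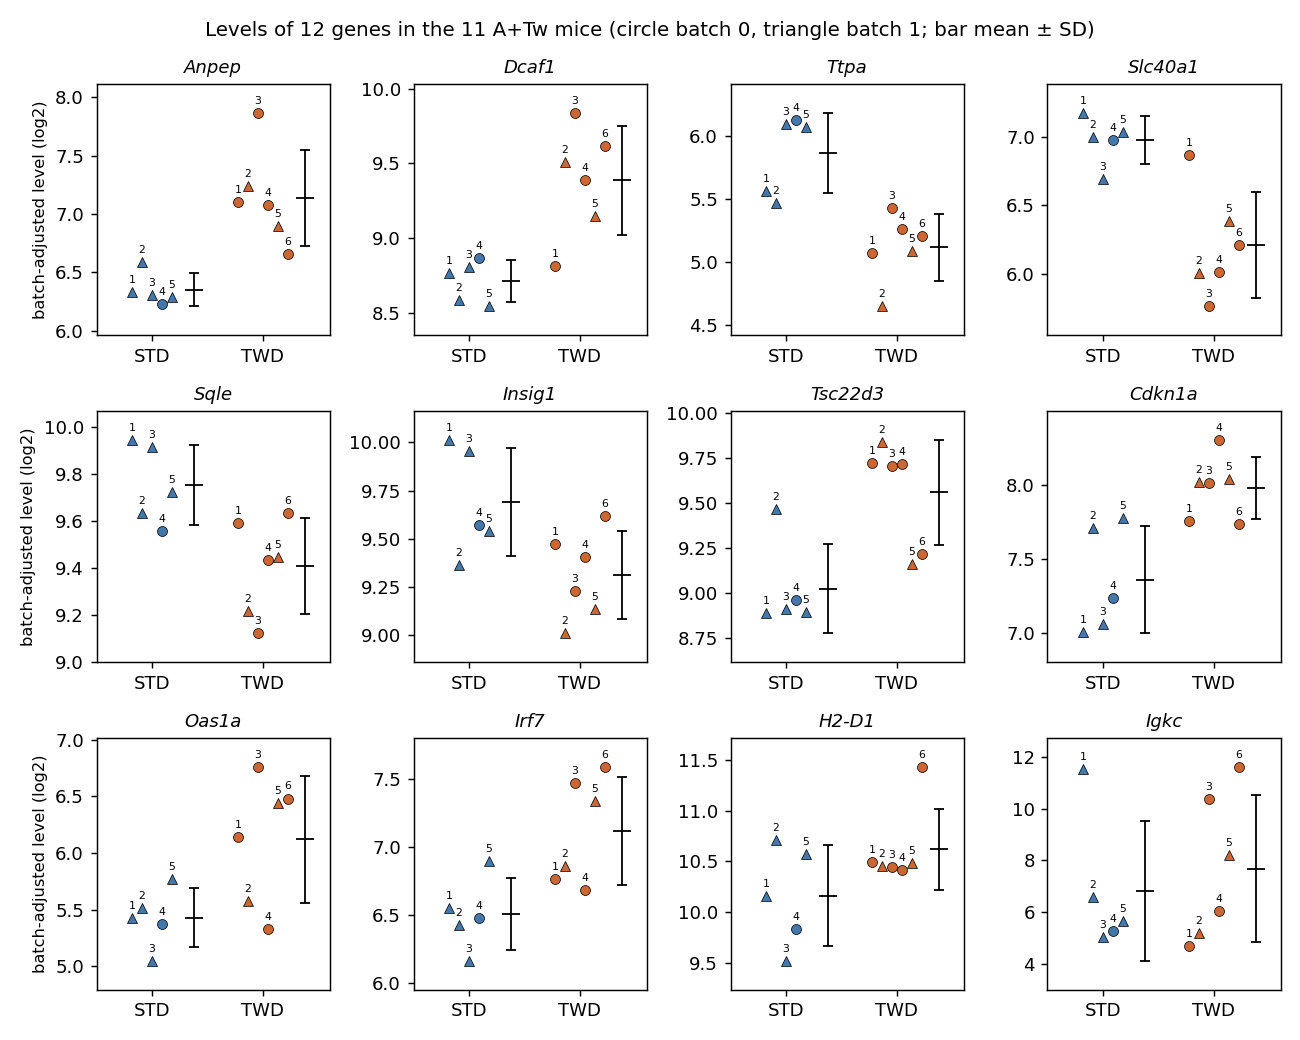
Batch-adjusted log2 level of 12 genes in each A+Tw mouse, numbered within its diet (blue STD, orange TWD; circle batch 0, triangle batch 1; bar, mean ± SD of 5 or 6 mice). Anpep is higher and Ttpa lower in all 6 TWD mice, Oas1a and Irf7 are high in some TWD mice, H2-D1 is high in TWD mouse 6, and Igkc is high in STD mouse 1 and TWD mice 3, 5 and 6.

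Genes of cholesterol synthesis and its control were lower on TWD, as a group with small differences. SREBP-2 switches these genes on through the sterol regulatory element when cells are short of sterol. Of 23 measured, 15 were lower and 8 higher on TWD, 6 were lower at an unadjusted p below 0.05 (beside 2.22% of all genes) and none higher, and the median was −0.16. Sqle (ENSMUSG00000022351, GRCm38 chromosome 15, 59315077–59331192), the squalene epoxidase, read 9.94, 9.63, 9.91, 9.56 and 9.72 in A+Tw/STD mice 1 to 5 and 9.59, 9.22, 9.12, 9.43, 9.45 and 9.63 in A+Tw/TWD mice 1 to 6. Mice 2 to 5 on TWD were below every STD mouse, and mice 1 and 6 lay inside the STD range, above its lowest mouse. The difference was −0.35 ± 0.14, with an interval of −0.63 to −0.06, and it was −0.11 within batch 0 and −0.47 within batch 1. Msmo1 and Sc5d, enzymes of the late steps, differed by −0.26 ± 0.12 and −0.52 ± 0.26. Insig1, which holds SREBP back in the endoplasmic reticulum and is itself a target of it, was at −0.38 ± 0.18.

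The mean level of the 23 genes was −0.06, 0.02, 0.0037, −0.06 and 0.09 on STD and −0.03, −0.11, −0.25, −0.12, −0.11 and −0.10 on TWD, which left mouse 1 within the STD range and mice 2 to 6 below it. With 1 mouse left out the median stayed between −0.20 and −0.11, and the number of lower genes at an unadjusted p below 0.05 ran from 2 without TWD mouse 2 to 6. Over all genes, in either direction, 383 stood at that p without TWD mouse 2 and 705 with all 11 mice. With the axis score as a covariate the median of the list was −0.08. It was −0.07 with the trend over transcript length and GC content removed. Within batch 0, with 1 STD mouse, it was −0.11, and within batch 1 −0.07. Within the list, Hmgcs1, an early enzyme of the pathway, was at −0.21 and held the letters TCACNCCAC of the sterol regulatory element, 137 bases before its start. Its window is chr13:119690101-119690400, plus strand, with the match in capitals.
Hmgcs1: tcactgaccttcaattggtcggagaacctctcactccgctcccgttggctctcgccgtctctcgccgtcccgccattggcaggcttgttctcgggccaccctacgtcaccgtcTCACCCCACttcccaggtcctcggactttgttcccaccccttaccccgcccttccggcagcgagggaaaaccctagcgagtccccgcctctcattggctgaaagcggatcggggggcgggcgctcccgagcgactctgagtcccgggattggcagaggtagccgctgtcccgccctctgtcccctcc
These letters were found in 1 of 17 genes of the list with a promoter (5.88%) and in 1.37% of the 11615 genes. That the other 16 lack them in this window says nothing about SREBP-2, whose sites vary in sequence.

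Other lipid genes had smaller differences as a group. Of 30 genes of fatty acid metabolism and lipid droplets, 20 were higher on TWD, with a median of 0.08. Among them 1 was at an unadjusted p below 0.05 (beside 2.21% of all genes). That gene was Cpt2, which frees fatty acids for oxidation inside mitochondria, with 6.97, 7.19, 6.98, 6.87 and 7.16 on STD, 6.76, 7.56, 7.93, 7.23, 7.51 and 7.68 on TWD and a difference of 0.41 ± 0.20. TWD mice 2 to 6 were above the STD range and mouse 1 was below it. Angptl4, a target of fatty acid receptors, was at 0.39 ± 0.21, the lipid droplet coat protein Plin2 at 0.28 ± 0.16 and the mitochondrial carrier Ucp2 at 0.53 ± 0.29, whose TWD values exceeded the STD range in 5 of 6 mice. Sterol export genes and lipid carriers had a median of 0.01, 9 of 17 being higher. Apoa2, an apolipoprotein of high-density lipoprotein, was among the 10 genes with the smallest p, at 0.42 ± 0.13, but its level of 4.94–5.89 is close to the floor of the scale.

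Genes that glucocorticoids induce were higher on TWD, and their mean level did not overlap between the diets. Corticosterone, the stress hormone of rodents, acts on the glucocorticoid receptor, which is abundant in hippocampus. Of 15 such genes measured, 11 were higher on TWD, 5 at an unadjusted p below 0.05 (beside 2.21% of all genes) and none lower at that p, with a median of 0.34. Tsc22d3, also called GILZ, read 8.89, 9.47, 8.91, 8.96 and 8.90 in A+Tw/STD mice 1 to 5 and 9.72, 9.84, 9.70, 9.72, 9.16 and 9.22 in A+Tw/TWD mice 1 to 6. TWD mice 1 to 4 were above all STD mice, and STD mouse 2 was above TWD mice 5 and 6. The difference was 0.54 ± 0.23. Cdkn1a, a cell cycle inhibitor, read 7.01, 7.71, 7.06, 7.24 and 7.77 on STD and from 7.73 to 8.30 (median 8.01) on TWD and differed by 0.62 ± 0.23. Sult1a1, a sulfotransferase, was at 0.44 ± 0.19, with 5 of 6 TWD mice above the STD range. The metal-binding Mt1 was at 0.57 ± 0.26 and the kinase gene Map3k6 at 0.50 ± 0.23.

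The mean level of the 15 genes was −0.19, 0.06, 0.03, 0.05 and 0.06 on STD and 0.28, 0.42, 0.19, 0.36, 0.11 and 0.12 on TWD, so every TWD mouse was above every STD mouse. This held for 1 of the 44 lists. No list had every TWD mouse below every STD mouse. The median of the list was 0.33 within batch 0, 0.46 within batch 1 and 0.21 with the axis score as a covariate, and it stayed between 0.26 and 0.45 with 1 mouse left out. The number of higher genes at an unadjusted p below 0.05 was 1 without TWD mouse 2 and 7 without TWD mouse 6. Over all genes, in either direction, that number was 383 and 1070 in these fits. The core ACANNNTGT of the glucocorticoid response element, a palindrome that was counted once per position, occurred in 4 of 13 genes with a promoter (30.8%: Lcn2, Map3k6, Mt1 and Sgk1) and in 5.41% of all 11615 genes. In Mt1 it starts 92 bases before the transcript start, within chr8:94178839-94179138, plus strand.
Mt1: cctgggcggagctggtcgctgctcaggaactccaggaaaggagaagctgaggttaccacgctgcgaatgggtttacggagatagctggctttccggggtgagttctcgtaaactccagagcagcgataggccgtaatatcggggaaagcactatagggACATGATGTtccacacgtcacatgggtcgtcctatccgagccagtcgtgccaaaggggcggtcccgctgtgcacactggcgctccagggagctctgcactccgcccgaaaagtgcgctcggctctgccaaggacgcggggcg

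**Figure D3:**
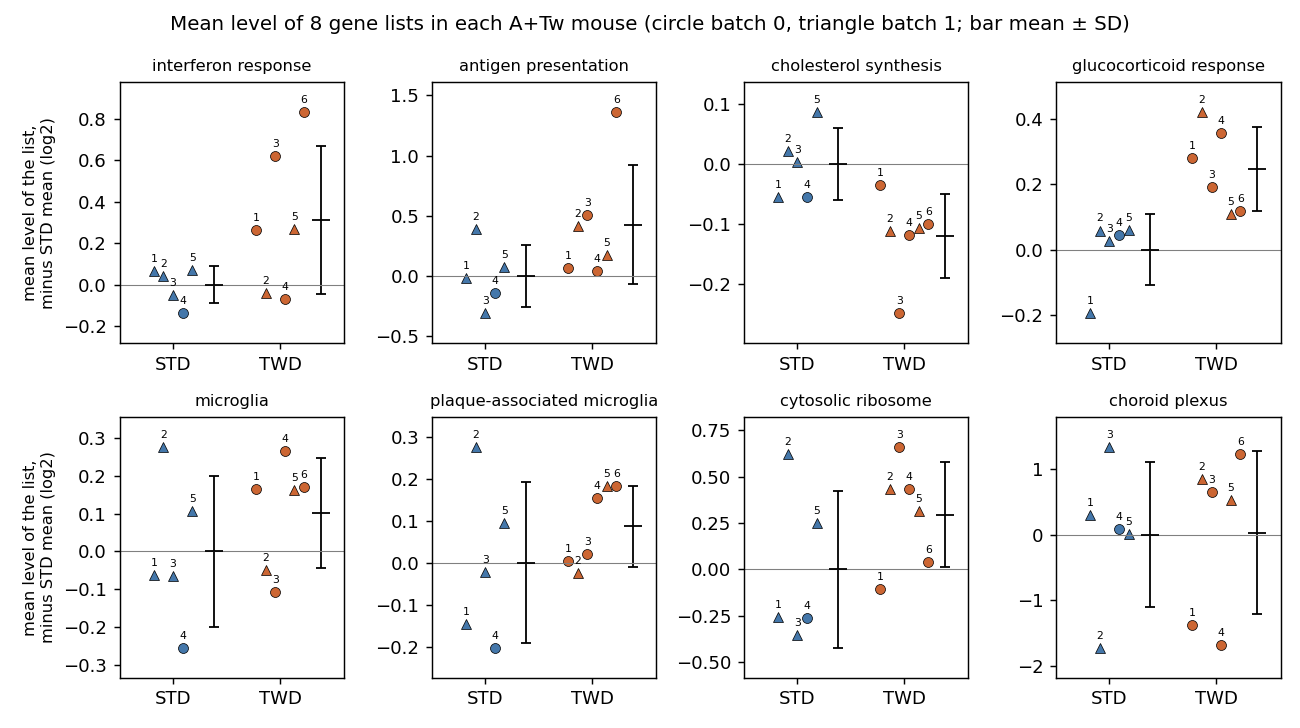
Mean log2 level of the measured genes of 8 lists in each A+Tw mouse, minus the mean of the STD mice (numbers, mice; circle batch 0, triangle batch 1; bar, mean ± SD of 5 or 6 mice). The glucocorticoid response does not overlap between the diets, interferon response and antigen presentation are highest in TWD mouse 6, and the cytosolic ribosome overlaps between the diets.

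Microglial genes were slightly higher on TWD, and genes of the plaque programme had a median closer to 0. Of 30 microglial genes, 21 were higher, 3 at an unadjusted p below 0.05 (beside 2.21% of all genes), with a median of 0.14. Aif1, which encodes the microglial marker Iba1, read 7.03, 7.82, 7.13, 6.87 and 7.28 in A+Tw/STD mice 1 to 5 and 7.32, 8.04, 8.19, 7.96, 7.56 and 7.56 in A+Tw/TWD mice 1 to 6. STD mouse 2 was within the TWD range, and the other STD mice were below all TWD mice. The difference was 0.54 ± 0.18. Tmem119 and the Fc receptor gene Fcgr3 differed by 0.36 ± 0.17 and 0.28 ± 0.13. The mean level of the 30 genes overlapped between the diets, at −0.06, 0.28, −0.07, −0.25 and 0.11 on STD and 0.17, −0.05, −0.11, 0.26, 0.16 and 0.17 on TWD.

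Trem2, the lipid-sensing receptor of the plaque response, read 8.68, 9.94, 8.86, 8.93 and 9.51 on STD and from 9.36 to 9.78 (median 9.55) on TWD. Mouse 2 on STD had the highest level of all 11 mice, and the difference was 0.36 ± 0.20, with an interval of −0.05 to 0.77. Its adaptor Tyrobp was at 0.36 ± 0.19. Of 15 genes of Trem2 signalling 8 were higher, with a median of 0.04 and none at an unadjusted p below 0.05. Of 30 genes that microglia raise at plaques, 20 were higher and none reached that p, with a median of 0.05. That median was 0.38 within batch 0, with 1 STD mouse, and 0.07 within batch 1. Cst7 differed by 0.06 ± 0.20, the integrin gene Itgax by −0.05 ± 0.20 and the β-glucan receptor gene Clec7a by −0.24 ± 0.24. Their intervals were −0.34 to 0.46, −0.46 to 0.35 and −0.73 to 0.25, so that a difference of 1 in either direction lay outside each. The cathepsin gene Ctsz was at 0.37 ± 0.20, and Ch25h, which makes an oxysterol, at 0.27 ± 0.14. Homeostatic microglial genes, which microglia lower as they turn to plaques, had a median of 0.08 with 10 of 17 higher.

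Complement genes (17 measured, 11 higher) had a median of 0.09, with C1qa, a subunit of the first component, at 0.36 ± 0.21. Lysosomal genes (24 measured, 17 higher) had a median of 0.11, with the lysosomal protein progranulin (Grn) at 0.36 ± 0.14. Among 6 genes of border macrophages, which line vessels and meninges, 5 were higher. Cbr2, one of them, read 5.22, 4.99, 5.20, 5.39 and 5.36 on STD and 5.21, 6.32, 6.18, 5.53, 6.23 and 6.01 on TWD, so that mice 2 to 6 on TWD were above all STD mice, and differed by 0.68 ± 0.24. Its level of 4.99–6.32 is low on the scale. With the axis score as a covariate the lysosomal median was 0.0047. The median of the 30 microglial genes was 0.06 with the axis score as a covariate, and 0.42 within batch 0 and 0.09 within batch 1. It was 0.07 without STD mouse 4 and 0.20 without STD mouse 5, and the number of higher genes at an unadjusted p below 0.05 ran from 1 without STD mouse 1, 3 or 4 or TWD mouse 4 to 13 without STD mouse 2. Over all genes, in either direction, that number was 342, 333 and 553 without STD mice 1, 3 and 4. It was 612 without TWD mouse 4 and 2333 without STD mouse 2.

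Genes of the insulin-PI3K-Akt-mTOR pathway were mostly lower, by small amounts. Of 29 measured, 20 were lower and 9 higher, with a median of −0.13. In each direction 1 was at an unadjusted p below 0.05, beside 2.22% of all genes lower and 2.21% higher. Pik3r1, a regulatory subunit of PI3K, read 10.62, 9.62, 10.44, 9.96 and 9.70 in A+Tw/STD mice 1 to 5 and 9.89, 9.51, 9.21, 9.79, 9.60 and 9.77 in A+Tw/TWD mice 1 to 6. STD mice 1, 3 and 4 were above all TWD mice, and STD mice 2 and 5 were inside the TWD range. The difference was −0.44 ± 0.20, with an interval of −0.85 to −0.03. The catalytic subunit Pik3cb was at −0.29 ± 0.15 and the insulin receptor substrate Irs1 at −0.32 ± 0.20. Tsc2, which restrains mTOR, was higher, with 10.58, 11.52, 10.66, 10.98 and 11.17 on STD, from 11.03 to 11.97 (median 11.41) on TWD and a difference of 0.42 ± 0.19. STD mice 1 and 3, with the highest Pik3r1 and the lowest Tsc2, also had the highest axis scores of the 11 mice (1.42 and 1.31), and with that score as a covariate the median of the pathway was −0.02. Without STD mouse 2 the median was −0.21 and without TWD mouse 2 it was −0.07.

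The transcription regulators that the study singled out for diet were all lower. Elf1, an ETS factor, read 6.93, 6.91, 7.11, 7.00 and 6.54 on STD and from 6.19 to 6.77 (median 6.38) on TWD and differed by −0.45 ± 0.16, and 4 TWD mice were below all STD mice. Foxo1, which Akt keeps out of the nucleus, was at −0.27 ± 0.23, with an interval of −0.73 to 0.18. The acetyltransferase gene Ep300 was at −0.40 ± 0.23, but −1.09 within batch 0, where STD mouse 4, with the highest value, is the only STD mouse, and −0.12 within batch 1.

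Neuronal, astrocytic and vascular genes had few members at an unadjusted p below 0.05. Of all genes, 2.21% were higher and 2.22% lower at that p. Of 32 synaptic genes 21 were lower, with a median of −0.07, and Nlgn1, a postsynaptic adhesion protein, was the only one at an unadjusted p below 0.05, at −0.62 ± 0.28. Genes of CA1 pyramidal cells had a median of 0.03, those of CA3 and CA2 −0.08, and those of dentate granule cells −0.13, with none of their 6, 8 and 8 genes at that p. Immediate early genes had a median of −0.06 and clock genes −0.01. Of 14 astrocyte genes 9 were lower, 2 of them at an unadjusted p below 0.05: Aqp4, the water channel of endfeet, at −0.56 ± 0.24, and Gja1, a gap junction connexin, at −0.53 ± 0.23. Gja1 read 10.97, 9.93, 10.72, 11.34 and 10.55 on STD and 10.66, 10.13, 9.16, 10.15, 10.34 and 10.61 on TWD, where mouse 3 was far below the rest. Without TWD mouse 3 the median of the astrocyte genes was 0.02 in place of −0.08, with 0 genes at that p, and within batch 1 it was 0.02. Over all genes, in either direction, 418 stood at that p without TWD mouse 3. Of 20 endothelial genes 13 were higher, with Ly6c1 at 0.50 ± 0.21 and Vwf, the clotting protein of endothelial granules, at 0.71 ± 0.35. Of 16 genes of neuropeptides and interneurons 13 were higher and none at an unadjusted p below 0.05, with cholecystokinin (Cck) at 0.42 ± 0.24, parvalbumin (Pvalb) at 0.41 ± 0.22 and the tachykinin gene Tac2 at 0.33 ± 0.17. The median of these 16 genes was 0.13, and 0.04 with the axis score as a covariate, where that of the dentate genes was −0.0021 and that of the myelin genes −0.0032. Lhfpl3 was the only one of 8 genes of oligodendrocyte precursors at that p, at −0.66 ± 0.32. Myelin genes had a median of 0.07, and genes that process the amyloid precursor −0.06.

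Ribosomal and mitochondrial genes were higher on TWD in nearly every member, together with the main axis of residual variation. Of 80 genes of the cytosolic ribosome 77 were higher, with a median of 0.32, and 2 were at an unadjusted p below 0.05 (beside 2.21% of all genes). Of 79 genes of oxidative phosphorylation, the respiratory chain and ATP synthase, 73 were higher, with a median of 0.27. Among them 6 were at that p (beside 2.21% of all genes). Of 77 genes of the mitochondrial ribosome 67 were higher, with a median of 0.16. The mean level of the cytosolic ribosome was −0.26, 0.62, −0.35, −0.26 and 0.25 on STD and −0.11, 0.44, 0.66, 0.43, 0.31 and 0.04 on TWD, so that STD mice 2 and 5 stood with the TWD mice. STD mice 1 and 3, with the highest axis scores, were among the 3 lowest. With that score as a covariate the medians were 0.11 for the cytosolic ribosome, 0.02 for the mitochondrial ribosome and 0.07 for oxidative phosphorylation. These counts at an unadjusted p below 0.05 depended on single mice. For the cytosolic ribosome the count was 59 without STD mouse 2, 30 without TWD mouse 1, 18 without STD mouse 5, 12 without TWD mouse 6 and 0 without STD mouse 4 or TWD mouse 3. For oxidative phosphorylation it was 41 without STD mouse 2 and 1 without STD mouse 1, 3 or 4 or TWD mouse 3. The count over all genes, in either direction, was 2333 and 1281 without STD mice 2 and 5. It was 1261 and 1070 without TWD mice 1 and 6. Without STD mice 1, 3 and 4 it was 342, 333 and 553, and without TWD mouse 3 it was 418. Transcript length moved with the same difference. Genes with transcripts of up to 822 nt had a median difference of 0.06 and 61.0% were higher on TWD, those of up to 1504 nt 0.05 and 59.0%, those of up to 2582 nt −0.02 and 44.9%, and longer ones −0.10 and 31.2%. With the trend over transcript length and GC content removed, the medians were 0.24 for the cytosolic ribosome, 0.11 for the mitochondrial ribosome and 0.22 for oxidative phosphorylation. The part of transcript length and of the axis in these lists was not tested.

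Rps27l, a ribosomal protein-like gene, was at 0.43 ± 0.18 and Rpl14, of the large subunit, at 0.34 ± 0.16. Ndufs3 and Ndufs1, core subunits of complex I, were at 0.38 ± 0.15 and 0.27 ± 0.12. Choroid plexus tissue was present in unequal amounts: Ttr, its defining secreted protein, ranged from 10.05 to 17.34, low in STD mouse 2 and in TWD mice 1 and 4, and the mean level of all 17 plexus genes ran from −1.72 to 1.33 on STD and from −1.68 to 1.22 on TWD. The median difference of these 17 genes was 0.05. With 1 mouse left out it ran from −0.42 without STD mouse 2 to 0.39 without TWD mouse 4, and 16 of 25 alternatives kept its sign. Blood genes (4 measured, all higher) had a median of 0.59, with the highest levels in STD mouse 5 (1.84) and TWD mouse 4 (2.07).

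Genes of protein quality control, energy metabolism and redox balance were mostly higher. Of 24 chaperones and genes of the unfolded protein response, 18 were higher, with a median of 0.12. Among them 2 were at an unadjusted p below 0.05 (beside 2.21% of all genes). Herpud1, which acts in the disposal of proteins from the endoplasmic reticulum, read 9.56, 9.56, 9.57, 9.57 and 9.45 in A+Tw/STD mice 1 to 5 and 9.84, 9.94, 9.64, 9.69, 9.81 and 9.79 in A+Tw/TWD mice 1 to 6. The diets did not overlap, although the difference of 0.24 ± 0.15 had an interval of −0.05 to 0.54. The stress-induced factor Ddit3 (CHOP) and the chaperone Creld2 were at 0.34 ± 0.15 and 0.35 ± 0.16. Of 38 proteasome genes 26 were higher, 3 at that p (beside 2.21% of all genes), with a median of 0.11. Psmb10, a catalytic subunit of the immunoproteasome that cuts peptides for class I molecules, read 8.24, 9.69, 8.10, 8.67 and 9.38 on STD and from 8.92 to 9.72 (median 9.50) on TWD, a difference of 0.57 ± 0.28. STD mice 2 and 5 lay within the TWD range, as they did for the ribosome, and the standard subunits Psmb3 and Psmd2 were at 0.40 ± 0.19 and 0.35 ± 0.15.

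Of 28 genes of glycolysis and the citric acid cycle 20 were higher, with a median of 0.12. Among them 2 were at an unadjusted p below 0.05 (beside 2.21% of all genes). Ldhb, a subunit of lactate dehydrogenase, was at 0.36 ± 0.16, and Slc2a1, the glucose transporter of the blood-brain barrier, at 0.44 ± 0.24. Of 23 genes of oxidative stress and metals 14 were higher, with a median of 0.12. Mt2, a metallothionein like Mt1, was at 0.52 ± 0.26, while Gclm, a subunit of the enzyme that starts glutathione synthesis, was at −0.32 ± 0.16. With the axis score as a covariate the medians were 0.06 for chaperones, 0.05 for the proteasome, 0.00075 for glycolysis and 0.05 for oxidative stress.

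Signalling and processing genes were divided. Of 21 Wnt genes 13 were higher, with a median of 0.09: the ligand Wnt7a was at 0.47 ± 0.28 and Dvl2, which relays the signal from the receptor, at −0.32 ± 0.15. Among the genes that process the amyloid precursor, the α-secretases Adam10 and Adam17 were at −0.32 ± 0.26 and −0.35 ± 0.17. App itself differed by 0.04 ± 0.10, with an interval of −0.16 to 0.24. Of 22 autophagy genes 9 were higher, with a median of −0.03, the cargo receptor Sqstm1 at 0.31 ± 0.16 and the kinase Tbk1, which phosphorylates it, at −0.37 ± 0.15.

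Among the genes with the smallest p for a lower level on TWD, several handle iron, vitamins and signals. Ttpa (ENSMUSG00000073988, GRCm38 chromosome 4, 20007938–20030785), the tocopherol transfer protein that carries vitamin E, read 5.57, 5.47, 6.10, 6.13 and 6.08 in A+Tw/STD mice 1 to 5 and 5.07, 4.65, 5.43, 5.26, 5.09 and 5.21 in A+Tw/TWD mice 1 to 6. The diets did not overlap. The difference was −0.75 ± 0.19, with an interval of −1.14 to −0.36, and it was −0.88 and −0.94 within batches 0 and 1. The level of Ttpa, 4.65–6.13, is close to the floor of the scale. Slc40a1 (ENSMUSG00000025993, GRCm38 chromosome 1, 45908068–45926523), which encodes ferroportin, the only known exporter of cellular iron, and is the lowest member of the list of oxidative stress and metals, read 7.18, 7.00, 6.69, 6.97 and 7.03 on STD and 6.87, 6.01, 5.76, 6.01, 6.39 and 6.21 on TWD. TWD mice 2 to 6 were below all STD mice and mouse 1 was inside their range. The difference was −0.77 ± 0.23, and −0.76 and −0.78 within the batches. Atg4c, a protease of autophagy, was at −0.75 ± 0.22, and Ddit4l, an inhibitor of mTOR, at −0.62 ± 0.19.

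Other genes did not overlap between the diets and were lower on TWD. Trpc4, a cation channel subunit, read 9.36, 9.36, 9.38, 9.33 and 9.19 on STD and from 8.97 to 9.14 (median 9.03) on TWD, a difference of −0.28 ± 0.09. Pbx3, a homeobox factor, was at −0.54 ± 0.18, the histone gene Hist1h2ac at −0.45 ± 0.13, the guanylate cyclase gene Gucy2e at −0.34 ± 0.10 and the adhesion gene Cdh11 at −0.43 ± 0.19, all without overlap between the diets. Dynlt1-ps1, a pseudogene at −0.76 ± 0.34, shares sequence with its parent genes, so that its reads are uncertain. Dcaf10, a substrate receptor of Cul4 ubiquitin ligases, was at −0.44 ± 0.13.

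On the higher side the smallest p belonged to Dcaf1 (ENSMUSG00000040325, GRCm38 chromosome 9, 106821874–106880992), another Cul4 substrate receptor, which read 8.77, 8.59, 8.81, 8.86 and 8.54 in A+Tw/STD mice 1 to 5 and 8.81, 9.51, 9.84, 9.39, 9.15 and 9.62 in A+Tw/TWD mice 1 to 6. All but TWD mouse 1 were above the STD range. The difference was 0.67 ± 0.15, with an interval of 0.37 to 0.98. Anpep (ENSMUSG00000039062, GRCm38 chromosome 7, 79821803–79861059), an aminopeptidase of pericytes and leptomeningeal cells, read 6.33, 6.59, 6.31, 6.23 and 6.29 on STD and 7.10, 7.24, 7.87, 7.08, 6.90 and 6.66 on TWD. It did not overlap, was lowest on TWD in mouse 6 and differed by 0.79 ± 0.23. Pericyte and smooth muscle genes as a list had a median of 0.17, with 7 of 11 higher, but 0.02 with the axis score as a covariate, −0.12 within batch 0 and 0.05 without TWD mouse 2. Sh3bp2, an adaptor of immune receptors, was at 0.62 ± 0.18, and Hvcn1, a proton channel of phagocytes, at 0.43 ± 0.14. Knstrn, a spindle protein, was at 0.56 ± 0.17, the proteasome assembly chaperone Psmg4 at 0.57 ± 0.18, Prkrip1 at 0.41 ± 0.13 and Nradd at 0.46 ± 0.15. Wnk4, a kinase that regulates ion transport, and Sbsn did not overlap, at 0.60 ± 0.25 and 0.62 ± 0.31.

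The same comparison in AwTw mice, which share no mouse with it, called 1487 genes (9.35%) at an adjusted p below 0.05, 956 higher and 531 lower on TWD, with a smallest adjusted p of 0.0498. The calls stand at the edge of the threshold, and under 15 of the alternative settings no AwTw gene was called. Of these 1487 genes, 1434 (96.4%) differed in the same direction in A+Tw mice, beside 78.5% of all genes. At an unadjusted p below 0.05 in A+Tw mice stood 82 (5.51%, beside 4.43% of all genes), with 0 of them in the opposite direction. Their median difference, taken in the AwTw direction, was 0.23 in A+Tw and 0.54 in AwTw mice, the mice in which the genes were chosen. The same median was 0.11 in A+T+ mice, where 85.9% had the same direction, and 0.21 in AwT+ mice, where 92.7% did. A+Tw and AwTw mice share the batch term and the length gradient. In AwTw mice that gradient had medians of 0.11 for transcripts of up to 822 nt and −0.16 for those over 2582 nt. The axis score was also lower on TWD in both, with AwTw means of 0.91 on STD and −0.63 on TWD. With that score as a covariate, which also takes out diet differences along the axis, the AwTw count was 0. The part of batch, length and the axis in the shared direction was not tested. Across all genes the diet differences of A+Tw and AwTw mice correlated at 0.732 (Pearson) and 0.741 (Spearman), as a description over 15897 genes that are not independent of each other. The Pearson correlation of A+Tw mice was 0.617 with AwT+ and 0.385 with A+T+ mice.

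**Figure D4:**
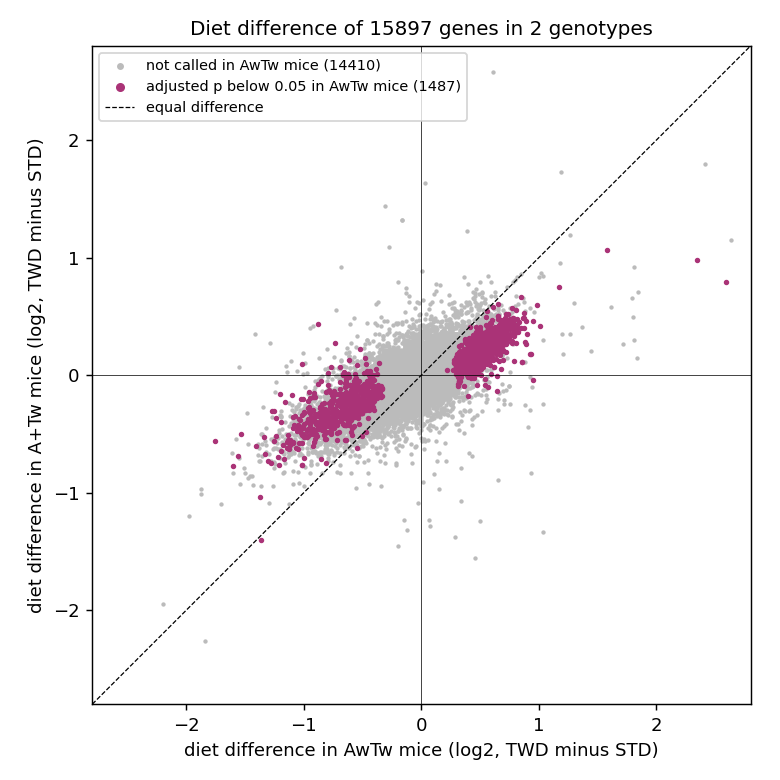
Diet difference (log2, TWD minus STD) of 15897 genes in AwTw mice (x axis) and A+Tw mice (y axis). Purple, the 1487 genes past an adjusted p of 0.05 in AwTw mice, and dashed, equal differences. Most purple points share their direction in both genotypes and lie closer to 0 in A+Tw mice, which their choice in AwTw mice favours.

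Whether the diet difference itself depended on the genotype was tested as an interaction. No gene passed an adjusted p of 0.05 for A+Tw minus AwTw, with a smallest adjusted p of 0.919. At an unadjusted p below 0.05 stood 352 genes (2.21%). The intervals of the interaction were wide, with a median SE of 0.223, and lay within ±0.5 for 28.0% of genes, so that equal responses were not shown either. For A+Tw minus A+T+ there was no gene at an adjusted p below 0.05 and 245 (1.54%) at an unadjusted one. The smallest adjusted p there, 0.205, belonged to Slc26a10, a member of the anion transporter family, with a diet difference lower by 1.26 in A+Tw than in A+T+ mice.

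The genes with the smallest interaction p behaved in different ways. Atp11a, a phospholipid flippase, was at 0.33 ± 0.14 in A+Tw and −0.33 ± 0.13 in AwTw mice, and Ccna2, the S-phase cyclin A2, at 0.49 ± 0.18 and −0.34 ± 0.17. In Ccna2 the lowest values were those of STD mice 2 and 5, which read 4.30 against 5.20–5.69 in the other STD and 5.29–5.66 in the TWD mice. A value of 4.30 is about the floor of 4.33–4.35 seen in immunoglobulin genes, so the Ccna2 values rest on low levels. Anxa8, an annexin, was at −0.37 ± 0.17 and 0.43 ± 0.15, with TWD mouse 5 at 4.81 and the others at 5.45–5.66. Dcaf1 belongs here too, at −0.10 ± 0.14 in AwTw mice. Gbp4, an interferon-induced GTPase, and Baiap2l2 were near 0 in A+Tw mice, at 0.01 ± 0.18 and −0.01 ± 0.16, and at −0.79 ± 0.16 and 0.65 ± 0.15 in AwTw mice, where their adjusted p was 0.0498. Apobr, a receptor for apolipoprotein B, was at −0.34 ± 0.18 and 0.47 ± 0.17, Plb1, a phospholipase, at −0.36 ± 0.19 and 0.45 ± 0.18, Wrap73 at −0.14 ± 0.17 and 0.64 ± 0.15, and Rassf8 at 0.21 ± 0.11 and −0.27 ± 0.10. These 10 genes were chosen by the smallest interaction p, and each has an adjusted interaction p of 0.919 or more.

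The genes with the smallest p in AwTw mice are given with both values, and since they were chosen in AwTw mice a smaller value in A+Tw mice is favoured by the choice. Lin37, of the DREAM complex that silences cell cycle genes, was at 0.89 in AwTw and 0.27 ± 0.22 in A+Tw mice, and Rpp21, of ribonuclease P, at 0.83 and 0.37 ± 0.21. Mocs1, which acts in molybdenum cofactor synthesis, was at 0.64 and 0.18 ± 0.14, and the repair gene Xrcc3 at 0.43 and 0.17 ± 0.11. On the lower side the ubiquitin ligase gene Znrf2 was at −1.16 and −0.23 ± 0.27, Tnrc6a, of the microRNA silencing complex, at −0.77 and −0.32 ± 0.18, Exd1 at −0.69 and −0.17 ± 0.17, and the homeobox gene Onecut1 at −0.57 and −0.15 ± 0.14. Pik3r1, Trem2 and Tyrobp also passed in AwTw mice, at −0.58, 0.58 and 0.55, beside −0.44, 0.36 and 0.36 in A+Tw mice.

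Side by side, 29 of the 44 lists had a smaller absolute median in A+Tw than in AwTw mice. The cytosolic ribosome was at 0.32 and 0.55, oxidative phosphorylation at 0.27 and 0.47, PI3K-Akt-mTOR at −0.13 and −0.34, microglia at 0.14 and 0.24 and plaque-associated genes at 0.05 and 0.16. The interferon response was at 0.32 in A+Tw, 0.20 in AwTw and −0.01 in A+T+ mice, antigen presentation at 0.47, 0.33 and 0.10, and the glucocorticoid response at 0.34, 0.31 and −0.06. Cholesterol synthesis was at −0.16, −0.13 and −0.07. In AwT+ mice the interferon response was at 0.27, antigen presentation at 0.24, the glucocorticoid response at 0.12 and cholesterol synthesis at −0.05. The cytosolic ribosome was at 0.36 in AwT+ mice. Sqle, at −0.35 in A+Tw mice, was at −0.30 ± 0.13 in AwTw and −0.07 in A+T+ mice. Oas1a was at 0.69, 0.11 and −0.02, Ttpa at −0.75, −0.21 and −0.18, and Slc40a1 at −0.77, −0.22 and −0.27. None of these genes differed between the genotypes at an adjusted p below 0.05, so that none of the values above is particular to A+Tw mice by test.

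**Figure D5:**
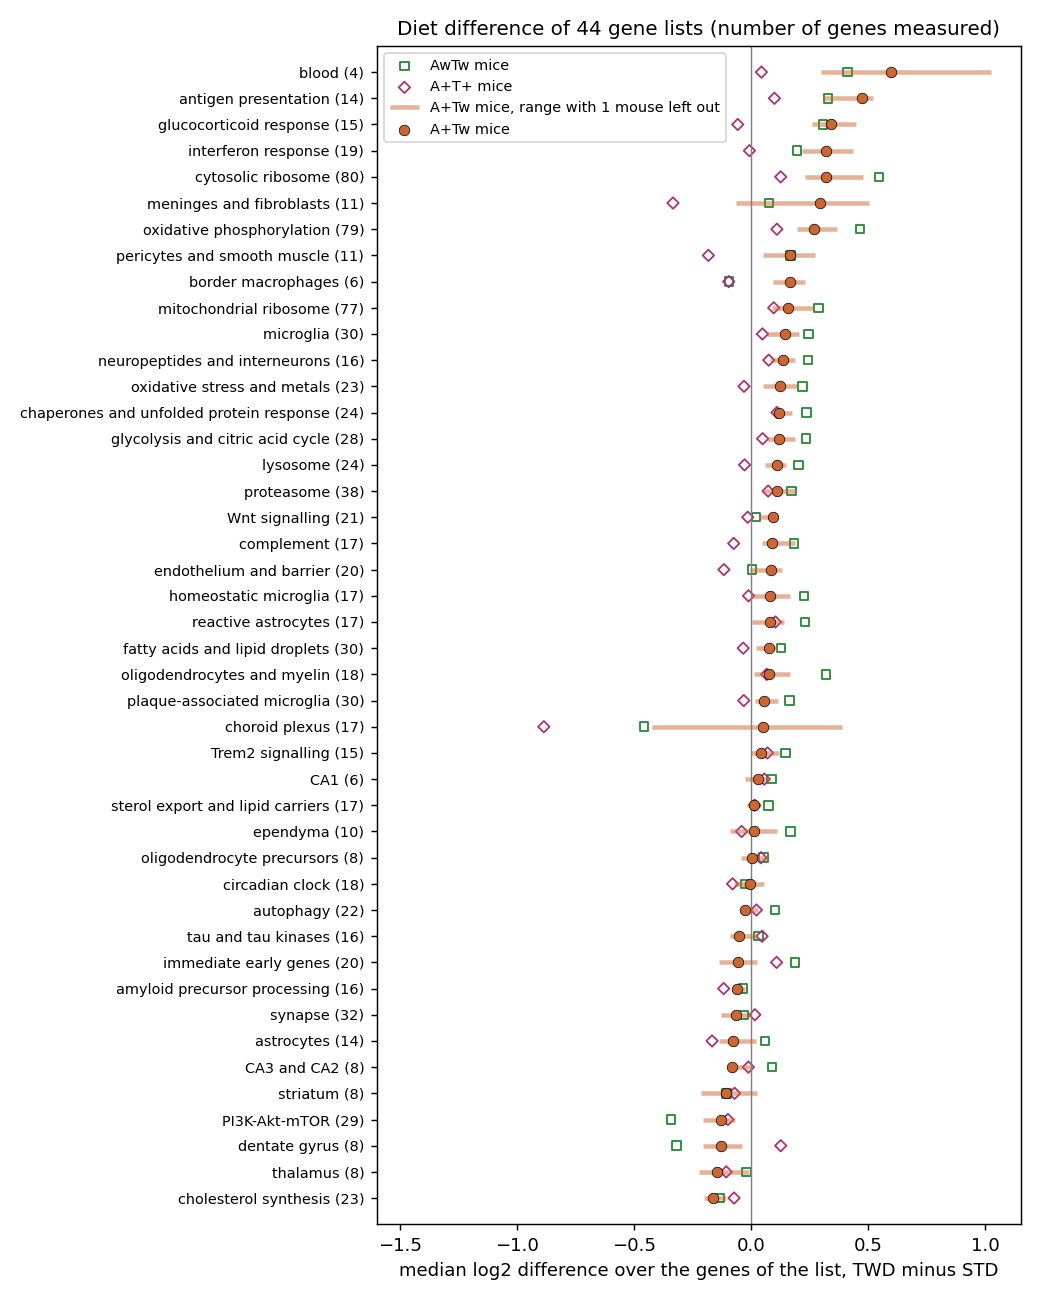
Median log2 difference (TWD minus STD) over the genes of 44 lists, with the number of genes measured (filled circle A+Tw mice, with the range when 1 mouse is left out as a bar, open square AwTw mice, open diamond A+T+ mice). Blood, antigen presentation and the glucocorticoid response are highest in A+Tw mice, and cholesterol synthesis is the lowest list.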

How the data were processed

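Hippocampal poly(A) RNA of 45 mice was sequenced as single reads. The authors trimmed reads with Trimmomatic 0.38, discarded ribosomal and mitochondrial reads with Bowtie2 2.2.3, quantified mouse transcripts (mm10) with kallisto 0.44.0, summed them per gene with tximport and dropped genes with a low mean count. The deposited values are log2-like: the authors applied the variance-stabilizing transformation of DESeq2 1.22.2 and then removeBatchEffect of limma 3.38.3. Gene means are equal between the batches in this table, so batch was removed without holding the groups in place, and it was kept as a covariate here. Depth is unknown from such values, so precision rests on the spread between mice.

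All 15897 genes were fitted with limma 3.58.1 in R 4.3.3 over 8 groups of genotype and diet plus batch, with empirical Bayes and a mean trend. Tests were two-sided. The p-values of all genes were adjusted together by Benjamini-Hochberg, with 0.05 as the threshold. Counts were not used. The fit was tested on simulated data. Symbols were found for 15695 genes (GENCODE M21, GRCm38), and 157 genes carry the exact values of another gene.

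The mice were taken by their labels. The comparison and the 44 gene lists were chosen with earlier results of these data known, and lists are described by counts and medians, without a test. Named genes were the 10 with the smallest p in each direction, the 5 with the largest difference in each direction among genes without overlap between the diets, genes the study discusses for diet, the 5 in each direction for the interaction and for AwTw mice, up to 4 members per list by p, and genes that check the labels; predicted gene models and copies were left out, and some genes are not reported here. Genes singled out for a promoter match, immunoglobulin genes and Slc26a10 were added after their values were seen. Promoters come from RefSeq (GRCm38.p6), without chromosome 18. Alternatives were: no batch term, each batch alone, other scaling, filters, spread estimates and covariates, copied genes counted once, only the groups compared, and each mouse left out. A fixed AwTw gene list was added after the data were seen.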

Additional observations from a re-analysis of the deposited data

Results flagged for a closer look

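Values of named genes and lists were screened for single A+Tw mice far from the rest of their diet group, by the gap to the next mouse as a share of the range (Dixon's criterion for 5 or 6 mice). Of 334 groups screened, 24 held such a mouse, and chance alone flags about 1 in 20. A+Tw/STD mouse 2 and A+Tw/TWD mouse 6 accounted for 5 each, and TWD mouse 3 for 4.

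A+Tw/TWD mouse 6 was far above the other TWD mice for the class I genes H2-D1 (11.43), H2-K1 (10.79) and their regulator Nlrc5 (6.62), for the mean of the antigen presentation list (1.36) and for Ighg1 (8.73). A+Tw/TWD mouse 3 was far below its group for Gja1 (9.16), for the astrocyte list (−0.52) and for the CA1 list (−0.33), and above it for Rps27l (7.88).

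A+Tw/STD mouse 2 was far above the other STD mice for Anpep (6.59), Tsc22d3 (9.47) and the autophagy list (0.0702), and far below them for Ttr (10.80), the choroid plexus gene, and for the list of oligodendrocyte precursors (−0.14). A+Tw/STD mouse 1 was high for Igkc (11.52) and low for Mocs1 (7.06) and for the glucocorticoid response (−0.19). A+Tw/STD mouse 5 was low for Trpc4 (9.19) and Herpud1 (9.45). The remaining mice were TWD mouse 2, low for Ddit4l (6.15) and Rassf8 (8.05) and high for Tac2 (7.60), TWD mouse 5, low for Anxa8 (4.81), and TWD mouse 1, low for Lin37 (8.25).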

How the results depend on the processing

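The count of genes past an adjusted p of 0.05 was 0 for diet in A+Tw mice and 0 for its difference from AwTw mice under every alternative run, also at adjusted p thresholds of 0.1 and 0.25 for the former. The 705 genes at an unadjusted p below 0.05 became 281 among genes above the median level and 3979 with a weight for each mouse, and ran from 333 to 2333 with 1 mouse left out. Without A+Tw/STD mice 1, 2, 3 and 5 the count was 342, 2333, 333 and 1281, and without A+Tw/TWD mice 1, 2, 3 and 6 it was 1261, 383, 418 and 1070. For the difference from A+T+ mice 1 gene, Slc26a10, passed with mouse weights, and from 0 to 1 with 1 mouse left out, the same gene without TWD mouse 3.

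The 1487 AwTw genes became 2490 without the batch term, 3982 in batch 1 alone, 2853 and 2655 above the 25th percentile and the median of level, 7309 with mouse weights and 1 (Dynlt1-ps1) with the 2 AwTw groups alone in the fit. The count was 0 in batch 0 alone, with quantile normalization, with the length and GC trend removed, without a mean trend, with robust empirical Bayes, and with the label prefix or the axis score as covariate, and it ran from 0 to 6072 with 1 AwTw mouse left out. The cause was not tested.

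For the 123 genes with values under alternatives, 61 of 2975 values had the other sign and 0 passed the threshold. Among the 75 at an unadjusted p below 0.05, 1 of 1812 did, Irf9 at −0.00028 in batch 0 alone. Of 1098 list medians, 81 had the other sign and 52 moved by more than 1 SD between mice, and 21 of 44 lists kept their sign throughout. No paired analysis was possible because the replicate numbers follow the accession order and tie no mice together.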
